A study of Homo sapiens with 27 samples.

Results

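The poly(A)+ RNA of the nuclear and the cytoplasmic/ER fractions was compared within TPR-depleted U2OS cells, a human osteosarcoma line. The cells had received 1 of 2 lentiviral shRNAs, named TPR A and TPR D, were selected with puromycin and were harvested after 5 days, and each shRNA had 3 replicate cultures. Each of these 6 cultures gave 1 nuclear and 1 cytoplasmic/ER library, so that 12 of the 27 libraries of the series were used and each nuclear library was paired with the cytoplasmic/ER library of its own culture. Cells were lysed in detergent, the pelleted nuclei were washed again in detergent, and the cleared supernatant is the cytoplasmic/ER fraction. Control cells, which had received a scrambled control shRNA and are 6 further libraries from 3 cultures, are given only beside the values of the depleted cells, and the total-cell libraries were used in 1 check. Of 34464 genes in the table, the 14472 with a mean above 1 FPKM over the 12 libraries and outside the mitochondrial genome were kept. FPKM relates the fragments of a gene to the length of its transcripts and to the depth of the library. Of the kept genes, 12372 are protein-coding and 1598 are lncRNA genes.

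TPR is a protein of the basket on the inner face of the nuclear pore, through which mRNAs leave the nucleus. An mRNA is normally capped, spliced and packaged with export factors such as the TREX complex and NXF1, passes the pore, and is then translated on free ribosomes or, when it encodes a secreted or membrane protein, on ribosomes bound to the endoplasmic reticulum (ER). Some lncRNAs stay in the nucleus, and mRNAs that keep an intron are often held there. The ratio described here, N/C, is the log2 of nuclear minus the log2 of cytoplasmic/ER FPKM after scaling and addition of 0.1. It is relative within each library, so it orders genes against the median gene and does not give the share of a gene's molecules that is in the nucleus.

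TPR itself (ENSG00000047410, on chromosome 1 of GRCh37) was depleted in every culture. Its mRNA was at 1.64 to 3.15 FPKM (median 2.38) in the nuclear and 0.132 to 0.689 (median 0.482) in the cytoplasmic/ER libraries, against 28.1 to 31.9 FPKM in the control nuclear and 2.26 to 3.66 in the control cytoplasmic/ER libraries. The fractions were then checked with RNAs of known place. The 13 mRNAs of the mitochondrial genome held 0.774% to 2.42% of all FPKM in the nuclear and 28.1% to 37.9% in the cytoplasmic/ER libraries. MALAT1 and NEAT1, lncRNAs of nuclear speckles and paraspeckles, were higher in the nuclear library of all 6 cultures, and KCNQ1OT1 lay under the filter. Markers of the line were present, with VIM at 1469 to 2595 FPKM (median 1733) in the nuclear and 1275 to 2226 (median 1413) in the cytoplasmic/ER libraries, SPARC at a median of 737 and 457 FPKM, and COL1A1 and RUNX2 above 8 FPKM in each of the 12 libraries, while COL1A2 lay under the filter. Among the control libraries, the nuclear one labelled replicate 2 held 21.8% mitochondrial mRNA, against 0.944% and 0.969% in the other 2, and the total-cell one labelled replicate 2 held 0.738%, against 19.9% and 21.6%. These 2 libraries thus go against their labels, so each value given for control replicate 2 is that of the libraries as labelled and may not be a nuclear to cytoplasmic/ER ratio. As for depth, 46.2 to 62.1 reads per kb of effective length lay behind each FPKM in the nuclear libraries, and 34.2 to 48.9 in the cytoplasmic/ER libraries.

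Nuclear and cytoplasmic/ER RNA differed for most genes. Limma called 4538 genes (31.4%) higher in the nuclear and 4625 genes (32%) higher in the cytoplasmic/ER fraction at an adjusted p of 0.05, and 1559 (10.8%) and 1156 (7.99%) of these differed by at least 1 on the log2 scale. In all 6 cultures 4025 genes (27.8%) were higher in the nuclear library and 4088 (28.2%) lower. For 80.6% of genes the mean N/C lay within 2-fold, and its standard error had a median of 0.13. Protein-coding genes were called for the nuclear fraction in 33.9% and for the cytoplasmic/ER fraction in 31.3% of cases, with a median N/C of 0.02. Of the lncRNA genes 212 (13.3%) were higher in the nuclear and 623 (39%) in the cytoplasmic/ER fraction, with a median N/C of -0.32 that was below 0 in each of the 6 cultures (-0.42 to -0.23). Spearman's rho between the N/C values of 2 depleted cultures was 0.54 to 0.85 over the 15 pairs (median 0.79), over genes, which are not independent.

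**Figure D1:**
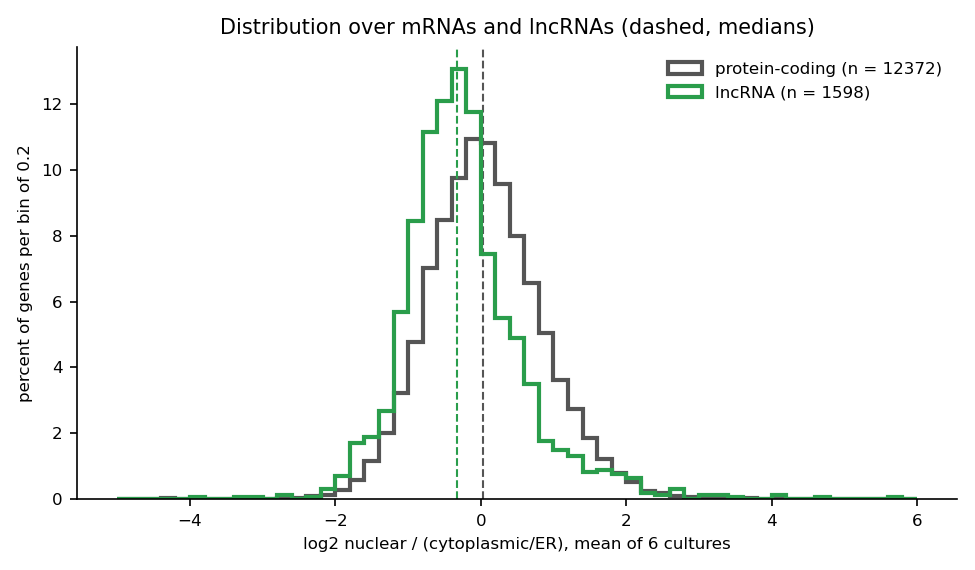
Distribution of the mean log2 N/C of the 6 depleted cultures (horizontal axis) for 12372 protein-coding and 1598 lncRNA genes, as percent of genes per bin (vertical axis), with dashed lines at the medians. The lncRNA curve lies to the left of the mRNA curve, with medians of -0.32 and 0.02.

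The 12 mRNAs with the highest N/C above 5 FPKM were led by ANLN and COL12A1. ANLN, which encodes the cytokinesis protein anillin (ENSG00000011426, chr7:36429430-36493400, plus strand), was at 187 to 318 FPKM (median 192) in the nuclear and 4.85 to 14 (median 10.9) in the cytoplasmic/ER libraries. No cytoplasmic/ER library reached the lowest nuclear one, and the nuclear level was 22.3-fold higher (log2 N/C 4.48, standard error 0.18, limma adjusted p = 1.43e-06). COL12A1, a collagen (ENSG00000111799, chr6:75794042-75915983, minus strand), was at 33.2 to 77.5 FPKM (median 43.5) in the nuclear and 1.35 to 4.01 (median 2.75) in the cytoplasmic/ER libraries, which is 17.6-fold (log2 N/C 4.14, standard error 0.15, limma adjusted p = 1.4e-06). FN1, which encodes the matrix protein fibronectin, was at 78.6 to 173 FPKM (median 112) in the nuclear and 6.43 to 11 (median 8.87) in the cytoplasmic/ER libraries (log2 N/C 3.73, standard error 0.12, limma adjusted p = 1.08e-06). The fractions of these genes did not overlap in any culture. SPTBN1 and SPTAN1, the spectrin chains that line the plasma membrane, had an N/C of 4.09 and 3.29, and IQGAP1, a scaffold of the actin cortex, 3.74. The remaining 6 of the 12 highest were the spindle protein ASPM (3.93), the kinetochore protein CENPF (3.46), the tight junction protein CGN (3.41), the pore protein RANBP2 (3.22), the dystrophin relative UTRN (3.20) and the chromosome surface protein MKI67 (3.18). Each of the 12 had nuclear values above all cytoplasmic/ER values, which their choice by highest N/C and 1 sign in all 6 cultures favours. Of all kept genes, 27.8% were higher in the nuclear library of all 6 cultures, and the share without overlap was not counted. The control cultures of the 12 were also on the nuclear side.

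**Figure D2:**
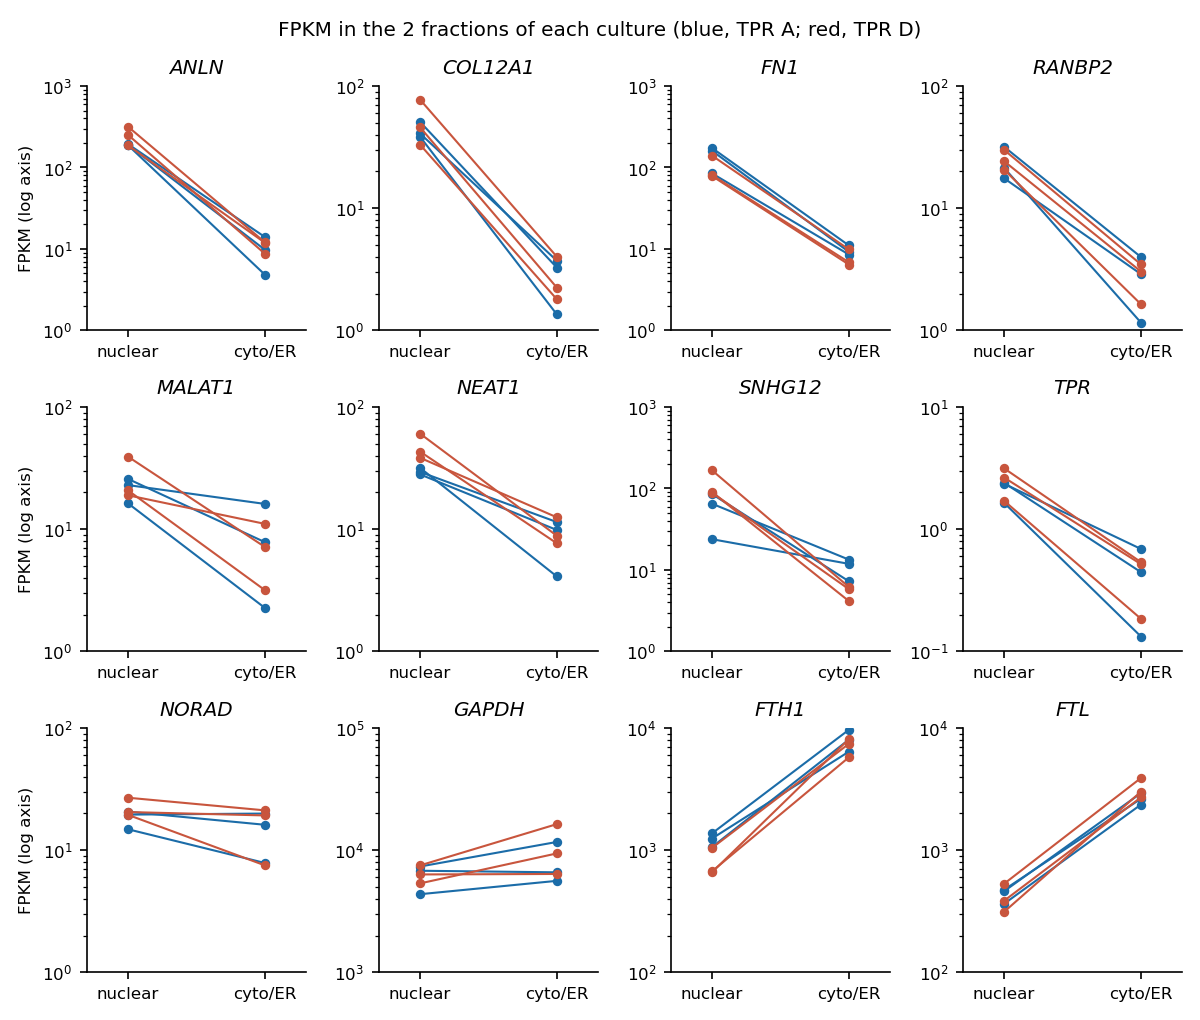
FPKM (log axis) in the nuclear and cytoplasmic/ER library of each depleted culture for 12 genes, with a line per culture. ANLN, COL12A1, FN1 and RANBP2 fall from left to right in all 6 cultures, FTH1 and FTL rise in all 6, and the lines of NORAD and GAPDH differ in direction.

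At the other end stood the ferritin mRNAs. FTH1, the heavy chain of the iron store ferritin (ENSG00000167996, chr11:61727190-61735106, minus strand), was at 659.8 to 1373 FPKM (median 1053) in the nuclear and 5757 to 9671 (median 7731) in the cytoplasmic/ER libraries. The cytoplasmic/ER level was thus 7.6-fold higher (log2 N/C -2.93, standard error 0.14, limma adjusted p = 2.6e-06). FTL, the light chain (ENSG00000087086, chr19:49468566-49470136, plus strand), was at 313 to 531 FPKM (median 424) in the nuclear and 2362 to 3897 (median 2818) in the cytoplasmic/ER libraries, or 6.89-fold higher in the cytoplasmic/ER fraction (log2 N/C -2.78, standard error 0.11, limma adjusted p = 1.4e-06). For both genes the 2 fractions did not overlap. Both carry near their 5′ end the iron-responsive element, the hairpin that iron regulatory proteins bind, and these windows (GRCh37, transcript strand, loop letters in capitals) are shown because the 2 mRNAs share them:
FTH1 (chr11:61735047-61735072, minus strand): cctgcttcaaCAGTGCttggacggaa
FTL (chr19:49468594-49468619, plus strand): cttgcttcaaCAGTGTttggacggaa
The loop letters CAGTGN alone are common: on the transcript strand they were found in the first 100 nt of 9.99% of all kept mRNAs with a sequence, in 10.6% of those called nuclear and in 9.23% of those called cytoplasmic/ER. Both genes have many processed copies in the genome, so how reads were shared between copies could not be seen.

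Of the 12 lowest mRNAs, 4 were MTRNR2L6, MTRNR2L1, MTRNR2L3 and MTRNR2L10, with an N/C of -4.57, -4.37, -4.34 and -4.30. These nuclear genes are near-identical to the 16S rRNA gene of mitochondria, so their reads are uncertain. The mitochondrial mRNAs, which were kept out of the test, had a median N/C of -5.62, from -6.45 for MT-ND3 to -1.06 for MT-ND6, and limma called all 13 when they were kept in. CIB2, a calcium-binding protein (-2.47), PPDPF (-2.45) and GTF3A, the transcription factor of the 5S rRNA gene (-2.44), were lower in the nuclear library of each culture without overlap. POU6F1 (-2.35), the readthrough gene DNAJC25-GNG10 (-2.35) and ENSG00000267952 (-3.39) complete the 12. The last 2 were each listed at 0 in 1 nuclear library, and had an N/C of -1.42 without TPR D replicate 3 and -2.47 without TPR D replicate 1.

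Genes were then grouped by function. The mRNAs of matrix and secreted proteins had the highest median of the lists, 1.34, against -0.02 for all genes. The shares of all mRNAs called for the nuclear and the cytoplasmic/ER fraction, 33.9% and 31.3%, are the background of the lists of mRNAs. Of 36 tested, 33 were higher in the nuclear fraction, 1 in the cytoplasmic/ER fraction, and 2 did not pass the test. The network collagens COL4A1 (2.61) and COL4A2 (2.53), the fibrillins FBN1 (3.08) and FBN2 (2.97) and the laminin chain LAMB1 (2.10) were higher in the nuclear fraction, as was the secreted glycoprotein SPARC, at a lower ratio (0.79). TGFBI, a matrix protein, was lower (log2 N/C -0.54, standard error 0.09, limma adjusted p = 0.000853), though not past the threshold in the fit without the culture block (adjusted p = 0.151, limma). The list medians of the 6 cultures ran from 1.21 to 1.40.

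The mRNAs of proteins that fold others in the ER were next described. Of 18 ER chaperones and folding enzymes, 15 were higher in the nuclear fraction, 0 in the cytoplasmic/ER fraction, and 3 did not pass the test (median 1.00). HSPA5, the main ER chaperone BiP, was at 244 to 638 FPKM (median 437) in the nuclear and 69.8 to 162 (median 103) in the cytoplasmic/ER libraries. HSP90B1, its HSP90 partner, was at 413 to 646 FPKM (median 519) in the nuclear and 73.3 to 235 (median 113) in the cytoplasmic/ER libraries. Both were higher in the nuclear libraries without overlap, 4.15-fold and 4.54-fold, and the disulfide isomerase PDIA3 (1.75) and the lectin CANX (1.35) were also called. SDF2L1 (-0.09) and HERPUD1 (0.01) did not pass the test.

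Integrins and other surface proteins showed a median of 0.67. Of 27 tested, 18 were higher in the nuclear fraction, 1 in the cytoplasmic/ER fraction, and 8 did not pass the test. The endocytic receptor LRP1 was at 18.1 to 36.4 FPKM (median 28.6) in the nuclear and 4.05 to 7.18 (median 6.46) in the cytoplasmic/ER libraries (log2 N/C 2.11, standard error 0.12, limma adjusted p = 4.14e-06), and the integrin chains ITGA2 (2.01) and ITGAV (1.66) and the transferrin receptor TFRC (1.54) were called in the same direction. The receptor kinase AXL was the 1 member called for the cytoplasmic/ER fraction (-0.55), joined by the immune checkpoint protein CD276 without TPR A replicate 3 (-0.26, limma adjusted p = 0.0331), and the small tetraspanins CD63 (-0.03) and CD81 (0.16) did not pass the test. The 4 ER-bound markers HSPA5, HSP90B1, CANX and P4HB (0.63) thus had higher values in the nuclear than in the cytoplasmic/ER fraction, while mitochondrial mRNAs made up at most 2.42% of the nuclear FPKM. The study blotted its fractions for nuclear, ER and cytoplasmic proteins. It reported relatively little cross contamination, with the nuclear protein marker well apart from the ER and cytosolic ones. Whether ER-bound mRNA stayed with the nuclear pellet was not tested in these RNA data. Of 160 TMEM genes, a name given to predicted transmembrane proteins, 34 were higher in the nuclear and 64 in the cytoplasmic/ER fraction (median -0.20), and of 210 solute carriers 67 and 58 (median 0.10, and 0.06 without TPR D replicate 1). The solute carrier shares, 31.9% and 27.6%, are near those of all mRNAs. TMEM219 (-1.98) and the mitochondrial carrier SLC25A39 (-1.87) were the lowest of these lists, and TMEM168 (1.61) and the amino acid transporter SLC38A2 (2.05) the highest above 10 FPKM.

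**Figure D3:**
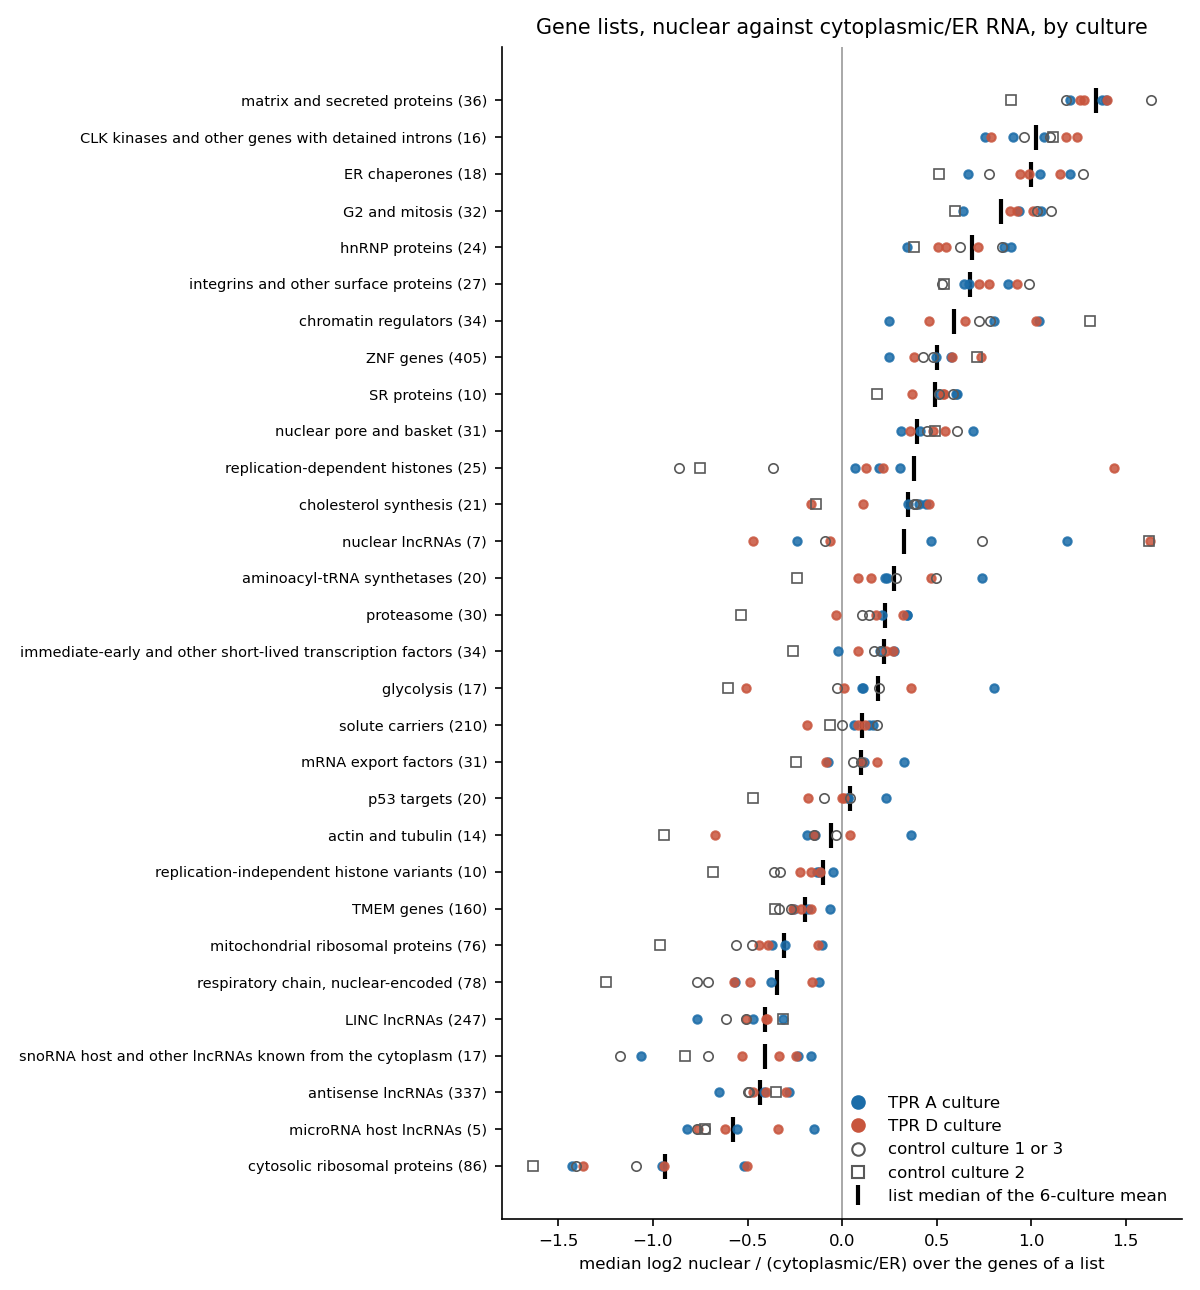
Median log2 N/C (horizontal axis) of 30 gene lists with the number of genes tested in parentheses, with a filled point per depleted culture, open symbols per control culture (a square for replicate 2, whose label is in doubt) and a black bar for the median of the 6-culture means. Matrix and secreted proteins lie highest (1.34) and cytosolic ribosomal proteins lowest (-0.93), and 1 TPR D culture stands apart for replication-dependent histones.

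Genes of G2 and mitosis were split by protein. Of 32 tested, 21 were higher in the nuclear fraction, 3 in the cytoplasmic/ER fraction, and 8 did not pass the test (median 0.84). Besides ASPM, CENPF and MKI67, the kinetochore motor CENPE (2.36), the passenger protein INCENP (2.05) and topoisomerase TOP2A (1.99) were well above 0. MKI67, the proliferation marker, was at 24.8 to 52.1 FPKM (median 31.8) in the nuclear and 1.89 to 6.02 (median 3.82) in the cytoplasmic/ER libraries. The mRNAs of BIRC5, the survivin gene (-0.70), the ubiquitin-conjugating enzyme UBE2C (-0.44) and the centromeric histone CENPA (-0.40) were the 3 called for the cytoplasmic/ER fraction. The cyclins CCNA2 (-0.10) and CCNB2 (0.07) did not pass the test.

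Genes with detained introns had the next highest list median after matrix and secreted proteins. Of 16 genes known for detained introns, introns that remain in a polyadenylated RNA held in the nucleus, 13 were higher in the nuclear fraction, 0 in the cytoplasmic/ER fraction, and 3 did not pass the test (median 1.03). The helicase DDX5 was at 630.3 to 858 FPKM (median 735) in the nuclear and 197 to 291 (median 234) in the cytoplasmic/ER libraries (log2 N/C 1.67, standard error 0.09, limma adjusted p = 3.36e-06). The O-GlcNAc transferase OGT (1.61) and the splicing-related PNISR (1.79) lay close to it. The SR protein kinases CLK2 (0.17) and CLK3 (0.03) did not pass the test. Values are sums over annotated protein-coding and lncRNA transcripts, so RNA that keeps an intron could not be told apart from spliced RNA. How far reads from introns were counted could not be seen. Of 10 SR splicing factors, 8 were higher in the nuclear fraction, 1 in the cytoplasmic/ER fraction, and 1 did not pass the test (median 0.49), with SRSF5 highest (0.89) and SRSF9 lowest (-0.41). Of 24 hnRNP genes, 16 were higher in the nuclear fraction, 2 in the cytoplasmic/ER fraction, and 6 did not pass the test (median 0.69). HNRNPH2 was at 69.2 to 161 FPKM (median 108) in the nuclear and 23.7 to 42.9 (median 30.8) in the cytoplasmic/ER libraries, the scaffold-attachment protein HNRNPU had an N/C of 1.66, and the poly(C)-binding protein PCBP2 was at 285 to 412 FPKM (median 379) in the nuclear and 613 to 1186 (median 675) in the cytoplasmic/ER libraries, without overlap but in the other direction (-1.09).

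Chromatin regulators and zinc finger factors can be read beside the 33.9% of mRNAs called for the nuclear fraction. Of 34 chromatin regulators, 23 were higher in the nuclear fraction, 2 in the cytoplasmic/ER fraction, and 9 did not pass the test (median 0.59, 0.25 to 1.04 over the cultures). The remodelers CHD9 (2.37), CHD1 (2.07) and CHD4 (1.89) and the methyltransferases KMT2A (1.89) and SETD2 (1.83) stood highest. The cytoplasmic/ER call was 1 in place of 2 when any culture but TPR A replicate 3 was left out. Of 405 ZNF genes, 225 were higher in the nuclear and 54 in the cytoplasmic/ER fraction (median 0.50), from ZNF638 (2.47) to ZNF358 (-2.15) above 10 FPKM. For ZNF genes with a mean above 5 FPKM the median was 0.23. Among immediate-early and other short-lived transcription factors 13 of 34 were called for the nuclear and 5 for the cytoplasmic/ER fraction (median 0.22). The nuclear share, 38.2%, is near the 33.9% of all mRNAs, and the cytoplasmic/ER share, 14.7%, is below the 31.3% of all mRNAs. SOX4 (1.02) and IER5 (1.00) were highest and FOSL1 (-0.63) lowest.

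The mRNAs of the pore and of the export machinery itself were measured too. Of 31 nuclear pore and basket genes, TPR included, 18 were higher in the nuclear fraction, 2 in the cytoplasmic/ER fraction, and 11 did not pass the test (median 0.40). RANBP2, the large filament protein on the cytoplasmic face of the pore, was at 17.6 to 31.8 FPKM (median 22.8) in the nuclear and 1.16 to 3.99 (median 2.96) in the cytoplasmic/ER libraries. AHCTF1, which starts pore assembly on chromatin, had an N/C of 1.82, and NUP133 (1.53) of the Y-shaped scaffold and the basket protein NUP153 (0.81) were called, whereas SEC13 (-0.03) of the same scaffold did not pass and SEH1L (-0.44) was lower. The cytoplasmic/ER call was 1 without TPR A replicate 1, TPR A replicate 2 or TPR D replicate 1. Of 31 mRNA export factors, 11 were higher in the nuclear fraction, 7 in the cytoplasmic/ER fraction, and 13 did not pass the test (median 0.10). The nuclear calls were 35.5% of the list against 33.9% of all mRNAs, a share near the background. The cytoplasmic/ER calls were 22.6% against 31.3%. The list median was 0.02 without TPR A replicate 3, 0.06 without TPR D replicate 1 and 0.19 without TPR D replicate 2. Within the THO part of TREX the subunits differed: THOC2 was at 20.8 to 31.2 FPKM (median 24.1) in the nuclear and 3.33 to 9.13 (median 7.34) in the cytoplasmic/ER libraries (2.04) and THOC1 had an N/C of 1.19, while THOC7 (-0.69) and THOC6 (-0.42) were lower in the nuclear fraction. MCM3AP, which encodes GANP of the TREX-2 complex that TPR helps to hold at the pore, had 0.58. The export receptor NXF1 (0.46) was higher in the nuclear fraction, but not past the threshold without replicate 1 of TPR A or of TPR D (limma adjusted p = 0.0523 and 0.0616). Its partner NXT1 (-0.74) was lower, and the adaptor ALYREF (0.05) did not pass the test. The cytoplasmic/ER calls among export factors were 4 without TPR D replicate 1 or TPR D replicate 3.

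The mRNAs of ribosomes and of mitochondria lay on the cytoplasmic side. Of 86 cytosolic ribosomal protein genes, 2 were higher in the nuclear fraction, 82 in the cytoplasmic/ER fraction, and 2 did not pass the test (median -0.93). RPL12 was at 452 to 968 FPKM (median 706) in the nuclear and 1761 to 4402 (median 2763) in the cytoplasmic/ER libraries (log2 N/C -1.99, standard error 0.17, limma adjusted p = 1.69e-05), and RPS12 at 585 to 1063 FPKM (median 763) in the nuclear and 2124 to 3219 (median 2809) in the cytoplasmic/ER libraries. The cytoplasmic/ER libraries were higher in every culture without overlap. The 2 members on the nuclear side were the ribosome-related gene RPL7L1 (0.40) and the paralog RPL10L (0.32), the latter not past the threshold without TPR A replicate 1, TPR A replicate 2 or TPR D replicate 1 (limma adjusted p = 0.0802, 0.0858 and 0.112), and ribosomal protein genes have many near-identical processed copies that make single values uncertain. The list medians of the cultures followed the replicate number under both shRNAs. For replicates 1, 2 and 3 they were -0.52, -0.95 and -1.43 in TPR A and -0.50, -0.94 and -1.37 in TPR D. The list median was -0.51 over the 2 cultures of replicate 1 and -1.15 over the 4 of replicates 2 and 3. Of 76 mitochondrial ribosomal protein genes, 9 were higher in the nuclear fraction, 42 in the cytoplasmic/ER fraction, and 25 did not pass the test (median -0.31), from MRPS15 (-1.54) to MRPS31 (1.13). Of 78 nuclear genes of the respiratory chain, 7 were higher in the nuclear fraction, 48 in the cytoplasmic/ER fraction, and 23 did not pass the test (median -0.34), with NDUFB10 lowest but one (-1.12) and the large flavoprotein SDHA highest (1.25). The nuclear calls in this list were 4 without TPR D replicate 1.

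Genes of metabolism and of the cytoskeleton were mixed. Of 17 glycolytic genes 5 were called for each fraction (29.4%, near the 33.9% and 31.3% of all mRNAs), with PFKM (0.87) and LDHB (0.65) on the nuclear side and GPI (-0.57) on the other. Without TPR A replicate 2 or TPR D replicate 3 the cytoplasmic/ER calls were 3, and without TPR D replicate 2 the nuclear calls were 8. Of 21 cholesterol synthesis genes 10 were higher and 3 lower in the nuclear fraction. INSIG1, which holds back the pathway, had -0.82. Aminoacyl-tRNA synthetases were called for the nuclear fraction in 11 of 20 cases and for the cytoplasmic/ER fraction in 1, a count that was 0 when any culture but TPR A replicate 3 was left out. EPRS1, the long fused enzyme for 2 amino acids, was at 79.4 to 166 FPKM (median 112) in the nuclear and 15.8 to 25.3 (median 22) in the cytoplasmic/ER libraries (2.42). Of 30 proteasome genes 15 were higher in the nuclear and 2 in the cytoplasmic/ER fraction (median 0.23). Actin and tubulin genes had no nuclear call and 4 cytoplasmic/ER calls of 14, with TUBG1, a tubulin of centrosomes, lowest (-0.72). The cytoplasmic/ER calls were 2 without TPR A replicate 1 or 2 or without TPR D replicate 2 or 3, and the nuclear call was 1 without TPR D replicate 2. Of 20 p53 targets 5 and 4 were called, with the repair gene XPC (1.26) highest and the cell cycle inhibitor CDKN1A (-0.78) lowest above 10 FPKM.

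Histone mRNAs, which mostly lack introns, were measured as poly(A)+ RNA, so their usual non-polyadenylated form was largely outside the assay. Of 25 replication-dependent histone genes, 8 were higher in the nuclear fraction, 2 in the cytoplasmic/ER fraction, and 15 did not pass the test (median 0.38, and 0.21 without TPR D replicate 1). The nuclear calls were 32.0% of the list against 33.9% of all mRNAs, a share near the background. The cytoplasmic/ER calls were 8.0% of the list against 31.3% of all mRNAs, a share below it. The culture medians were 0.07 to 1.44, with 1 TPR D culture far above the others, and control cultures 1, 2 (label in doubt) and 3 had -0.86, -0.75 and -0.36. H2BC15 (1.23), H4C16 (0.90) and the linker histone H1-4 (0.69) were higher in the nuclear fraction, and H4C3 (-0.99) was at 9.65 to 29.2 FPKM (median 22.7) in the nuclear and 14.8 to 71.9 (median 40.6) in the cytoplasmic/ER libraries, lower in the nuclear library of all 6 cultures. Without TPR A replicate 2 or TPR D replicate 1, 5 histone genes were called for the nuclear fraction. These genes are near-identical copies, and single values are uncertain. The replication-independent variants, whose mRNAs are polyadenylated, had 1 nuclear and 3 cytoplasmic/ER calls of 10. More widely, of 204 protein-coding genes with 1 exon, 93 were higher in the nuclear and 37 in the cytoplasmic/ER fraction (median 0.30), and the median was above 0 in each of the 6 depleted cultures (0.22 to 0.35). Control cultures 1, 2 (label in doubt) and 3 had -0.01, -0.14 and 0.09.

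The nuclear lncRNAs MALAT1 and NEAT1 were followed first. MALAT1 (ENSG00000251562, chr11:65265111-65275544, plus strand) was at 16.3 to 39.3 FPKM (median 21.9) in the nuclear and 2.27 to 16.1 (median 7.51) in the cytoplasmic/ER libraries (log2 N/C 1.83, standard error 0.31, limma adjusted p = 0.00088). NEAT1 (ENSG00000245532, chr11:65190245-65213011, plus strand) was at 28.1 to 60.6 FPKM (median 35.1) in the nuclear and 4.11 to 12.5 (median 9.35) in the cytoplasmic/ER libraries (log2 N/C 2.12, standard error 0.23, limma adjusted p = 5.95e-05). For both, the lowest nuclear value lay above the highest cytoplasmic/ER value, the gap being small for MALAT1. Of the 7 lncRNAs known from the nucleus, 3 were higher in the nuclear fraction, 1 in the cytoplasmic/ER fraction, and 3 did not pass the test, the third being TUG1 (0.72), while JPX, an activator of XIST, was higher in the cytoplasmic/ER libraries without overlap (-1.04). The cytoplasmic/ER calls of this list were 3 without TPR A replicate 1 and 2 without TPR D replicate 2. The C-rich motif CCTCCC, of the kind described in nuclear lncRNAs, was found 6 times in the MALAT1 and 11 times in the NEAT1 transcript searched. One match of each is shown (GRCh37, transcript strand, motif in capitals) as an example of the sequence searched:
MALAT1 (chr11:65265128-65265153, plus strand): gcgagccgccCCTCCCccggcgtttg
NEAT1 (chr11:65191163-65191188, plus strand): accccttcttCCTCCCtttaacttat
The motif was in 125 of the 212 lncRNAs called nuclear, 366 of the 623 called cytoplasmic/ER and 868 of all 1598, on the transcript strand, and in 71.7%, 75.1% and 73.7% of mRNAs.

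The hosts of small nucleolar RNAs, whose introns hold the snoRNAs and whose exons are usually exported and decay on ribosomes, fell on both sides. Of 17 such hosts and other lncRNAs known from the cytoplasm, 5 were higher in the nuclear fraction, 8 in the cytoplasmic/ER fraction, and 4 did not pass the test (median -0.41, and -0.15 without TPR A replicate 3). These are 29.4% and 47.1% of the list, against 13.3% and 39% of all lncRNA genes. SNHG12 was at 23.8 to 167 FPKM (median 87.1) in the nuclear and 4.15 to 13.4 (median 6.72) in the cytoplasmic/ER libraries (log2 N/C 3.33, standard error 0.44, limma adjusted p = 0.000198), and SNHG3 at 107 to 1525 FPKM (median 278) in the nuclear and 50.3 to 103 (median 68.9) in the cytoplasmic/ER libraries (log2 N/C 2.13, standard error 0.37, limma adjusted p = 0.000995). These 2 hosts were thus higher in the nuclear library of each culture, but their nuclear values were spread widely. SNHG16 (-1.29), SNHG6 (-1.17), ZFAS1 (-1.01) and the microRNA sponge OIP5-AS1 (-1.73) were higher in the cytoplasmic/ER fraction. Of 5 lncRNA hosts of microRNAs, MIR22HG was higher in the nuclear fraction (2.01) and the other 4 in the cytoplasmic/ER fraction, MIR4435-2HG among them (-0.58). The cytoplasmic/ER calls of this list were 2 without TPR D replicate 2 or TPR D replicate 3. MIR663AHG (ENSG00000227195, chr20:26148453-26232182, minus strand), a host outside that list, was at 470.2 to 2959 FPKM (median 650.1) in the nuclear and 29.6 to 62.8 (median 44.3) in the cytoplasmic/ER libraries (4.13).

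Other lncRNAs can be read beside the 13.3% and 39% of all lncRNA genes called for the nuclear and the cytoplasmic/ER fraction. Of 247 LINC genes 21 were higher in the nuclear and 119 in the cytoplasmic/ER fraction (median -0.41), and of 337 antisense lncRNAs 30 and 162 (median -0.44). With no minimum FPKM these medians were -0.058 and -0.093. LINC00460 was at 5.12 to 11.8 FPKM (median 7.83) in the nuclear and 19.4 to 57.2 (median 37.7) in the cytoplasmic/ER libraries (-2.14), and TP53TG1, a p53-induced lncRNA, at 10.5 to 25.4 FPKM (median 20.6) in the nuclear and 49.6 to 109 (median 89.3) in the cytoplasmic/ER libraries (-2.13). Both were lower in every nuclear library without overlap. PYDC2-AS1 (-2.03), LINC01610 (-1.82), ENSG00000273149 (-1.83), HAGLR (-1.78), next to the HOXD cluster, and ENSG00000233461 (-1.73) followed. At the nuclear end stood ENSG00000256185, which was at 5.00 to 25 FPKM in the nuclear libraries and listed at 0 in 5 of the 6 cytoplasmic/ER libraries. TPR A replicate 3 was the exception, with a cytoplasmic/ER value of 3.15 FPKM and an N/C of 1.47. FAM106A (2.55), ENSG00000270066 (2.74), ENSG00000267625 (4.01), ENSG00000265257 (2.72) and ENSG00000242590 (2.30) were among the 8 highest, ENSG00000267625 having 4.66 and 3.31 without TPR D replicate 2 and 3. LINC02041 (-1.89), among the 8 lowest, was listed at 0 in 1 nuclear library and had -1.12 without TPR D replicate 1. Single-exon lncRNAs had 51 nuclear and 37 cytoplasmic/ER calls of 215 (median -0.07, and -0.03 without TPR A replicate 3 or TPR D replicate 2), and multi-exon lncRNAs had 158 against 586 of 1379 (median -0.38).

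NORAD, GAPDH and H1-1 (HIST1H1A), which the study names, each had a call that was lost when single cultures were left out. NORAD (ENSG00000260032, chr20:34633540-34638940, minus strand), a lncRNA with 1 exon that binds Pumilio proteins, was at 14.8 to 26.9 FPKM (median 20) in the nuclear and 7.52 to 21.2 (median 17.7) in the cytoplasmic/ER libraries (log2 N/C 0.52, standard error 0.18, limma adjusted p = 0.0299). The fractions overlapped, 5 of 6 cultures were higher in the nuclear library, and adjusted p ran from 0.0156 to 0.179 over the alternatives, with 0.087 without TPR A replicate 2, 0.0588 without TPR D replicate 2 and 0.053 without TPR D replicate 3. The transcript held 15 matches to the Pumilio element TGTANATA in 5401 nt, which is why 2 of them are shown (GRCh37, transcript strand, element in capitals):
NORAD (chr20:34638105-34638132, minus strand): ggaaggcctgTGTATATAatatgaaaaa
NORAD (chr20:34637726-34637753, minus strand): ctcactactgTGTATATAgttgacaatg
The element was found, on the transcript strand, in 42.3% of mRNAs called nuclear, 23.0% of those called cytoplasmic/ER and 32.5% of all, and 89.0%, 61.2% and 75.4% of the mRNAs in these groups were at least 2 kb long. Among lncRNAs it was in 13.7%, 7.38% and 8.14%.

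GAPDH, the glycolytic enzyme, was at 4365 to 7505 FPKM (median 6563) in the nuclear and 5614 to 16346 (median 8002) in the cytoplasmic/ER libraries (log2 N/C -0.48, standard error 0.16, limma adjusted p = 0.0265), lower in the nuclear library of 5 of 6 cultures. Its adjusted p ran from 0.0134 to 0.239 over the alternatives, with 0.0771 without TPR A replicate 2, 0.0733 without TPR D replicate 2 and 0.0736 without TPR D replicate 3. H1-1, an intronless histone mRNA, was low, at 0.536 to 6.38 FPKM (median 2.42) in the nuclear and 0.307 to 2.02 (median 0.97) in the cytoplasmic/ER libraries (log2 N/C 1.03, standard error 0.32, limma adjusted p = 0.0192). Leaving out TPR A replicate 2 gave an adjusted p of 0.0532, within a range of 0.00975 to 0.205 over the alternatives.

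The N/C value was ordered by the length of the coding sequence. Over 12322 protein-coding genes with annotated features, Spearman's rho of N/C was 0.41 with CDS length (0.31 to 0.45 in the 6 cultures), 0.30 with mRNA length, 0.24 with the number of exons, 0.21 with pre-mRNA length and 0.08 with 3′UTR length. For GC content it was -0.33, with a wide spread between cultures, from -0.58 in TPR D replicate 2 to 0.04 in TPR A replicate 3. The ordering was also present in control cultures 1, 2 (label in doubt) and 3. There rho was 0.45, 0.42 and 0.45 with CDS length, 0.30, 0.31 and 0.31 with the number of exons, and 0.31, 0.46 and 0.27 with pre-mRNA length. The points are genes measured in the same libraries, and FPKM already divides by transcript length. With CDS length held constant, the partial rank correlation was -0.07 for exons, 0.04 for pre-mRNA length and -0.02 for mRNA length, whereas CDS length kept 0.34 with exons and 0.35 with pre-mRNA length held constant. GC content kept -0.34 with CDS length held constant, from -0.60 in TPR D replicate 2 to 0.07 in TPR A replicate 3. Over the 6 cultures, with CDS length held constant, pre-mRNA length had -0.11 to 0.20 and mRNA length -0.11 to 0.09. The partial correlations and the length classes that follow were chosen after the values were seen.

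**Figure D4:**
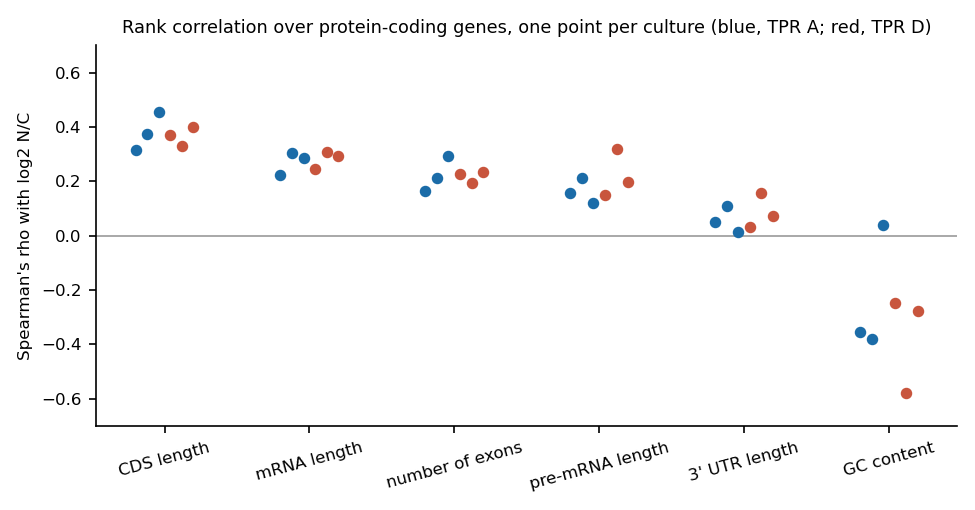
Spearman's rho between log2 N/C and 6 features of protein-coding genes (vertical axis), with a point per depleted culture. CDS length, mRNA length, exon number and pre-mRNA length are above 0 in all 6 cultures, while GC content is below 0 in 5 and at 0.04 in TPR A replicate 3.

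The CDS length of a gene was the median over its annotated protein-coding transcripts, short ones included, and not that of the longest. For LRP1 this value was 882 nt and for ZNF638 473 nt, for example. By class, the median N/C rose at each step of this length. It was -0.35 for 2442 genes with a CDS under 500 nt, of which 386 were called for the nuclear and 1272 for the cytoplasmic/ER fraction, and -0.12 for 4057 genes of 500 to 1000 nt. It was 0.16 for 3606 genes of 1000 to 2000 nt and 0.50 for 1772 genes of 2000 to 4000 nt. For 445 genes over 4000 nt it was 0.90, with 319 called for the nuclear and 24 for the cytoplasmic/ER fraction. Control cultures 1, 2 (label in doubt) and 3 had medians of 1.18, 1.39 and 1.04 in this class, and -0.47, -0.49 and -0.50 under 500 nt. Within each of the 25 lists of protein-coding genes rho with CDS length was also above 0, highest for G2 and mitosis (0.69, 32 genes), ER chaperones (0.68, 18 genes), glycolysis (0.58, 17 genes) and matrix and secreted proteins (0.57, 36 genes), and lowest for actin and tubulin (0.02, 14 genes). The list medians of CDS length, in the same sense, were 4116 nt for chromatin regulators, 1175 nt for matrix and secreted proteins and 415 nt for cytosolic ribosomal proteins. In lncRNAs, rho was -0.17 with the number of exons, -0.15 with pre-mRNA length and 0.01 with transcript length (1594 genes). The 5′ splice site motif GGTAAGT, searched on the transcript strand of mature transcripts, was in 7.86% of mRNAs called nuclear, 4.71% of those called cytoplasmic/ER and 6.34% of all.

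**Figure D5:**
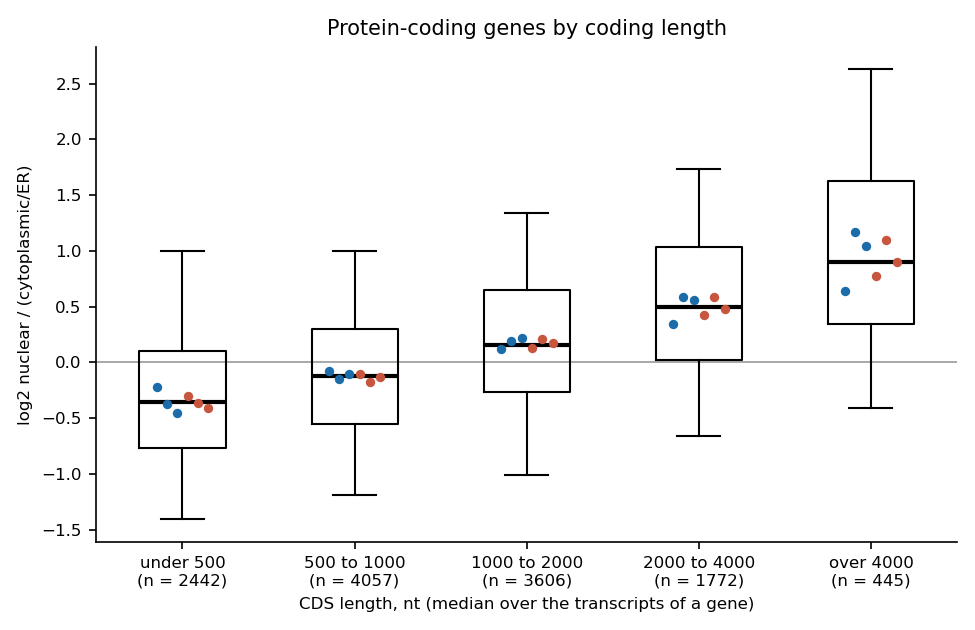
Log2 N/C (vertical axis) of protein-coding genes in 5 classes of CDS length, with boxes from the 25th to the 75th percentile, whiskers to the 5th and 95th, a bar at the median and a point for the median of each depleted culture (blue, TPR A, and red, TPR D). The medians climb from -0.35 to 0.90, and the 6 cultures keep the order of the classes.

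The 2 shRNAs were compared next, to see whether a gene's N/C depended on which was used. No gene of 14472 passed the threshold in limma (0%), 192 genes (1.33%) had an unadjusted p under 0.05, and the lowest adjusted p was 0.9996. The standard error of the difference had a median of 0.27. With the replicate number as a further block it was 0.20, 417 genes (2.88%) had an unadjusted p under 0.05, and again no gene passed, with a lowest adjusted p of 0.748. The lowest p belonged to RB1-DT, LINC02193, ENSG00000270022, LIX1L-AS1 and ENSG00000271973, each with a mean under 8 FPKM. LINC02193, for example, was at 1.84 to 13.9 FPKM in the nuclear and 4.62 to 21.5 in the cytoplasmic/ER libraries of TPR A, and at 9.58 to 11.4 and 1.02 to 1.52 in those of TPR D. For SNHG12 the mean N/C was 2.28 over the TPR A cultures and 4.37 over the TPR D cultures, which did not pass the adjusted threshold.

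The depleted cells were set beside the control cultures. Spearman's rho of their N/C values was 0.74 to 0.84 with control replicate 1, 0.77 to 0.85 with replicate 3 and 0.46 to 0.79 with replicate 2, over genes. Values are also given without control replicate 2, whose nuclear library went against its label. No gene passed the adjusted threshold for a difference in N/C between depleted and control cells (0%). The standard error of this difference had a median of 0.23, or 0.25 without control replicate 2. An unadjusted p under 0.05 was found for 1524 genes (10.5%), or 596 (4.12%) without control replicate 2, and the lowest adjusted p was 0.231 and 0.450. With the replicate number as a further block these counts were 2723 (18.8%) and 1765 (12.2%), and no gene passed, with a lowest adjusted p of 0.145 and 0.322. The 5 genes with the lowest p were ZNF749, SIPA1L3, SNHG19, LINC02242 and RP11-589N15.2. ZNF749 had a mean N/C of 0.22 in depleted cells and -1.23, -1.38 and -1.56 in controls 1, 2 (label in doubt) and 3. The spliced snoRNA host SNHG19 had 0.31 against -0.96, -1.24 and -0.93. SIPA1L3 went the other way, with -0.16 against 0.91, 1.29 and 1.00. Medians of matrix and secreted proteins were 1.63, 0.89 and 1.19 in controls 1, 2 (label in doubt) and 3, and those of cytosolic ribosomal proteins -1.09, -1.64 and -1.40.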

How the data were processed

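The authors isolated poly(A)+ RNA, made strand-specific libraries, quantified reads with Salmon on Gencode 19 protein-coding and lncRNA transcripts (hg19), and deposited FPKM per gene, summarized with tximport. They ran DESeq2 for fold changes not used here, and tool versions are not given in the sources used here. Pairing by culture follows from the fractionation of the same cells. Deviations of the nuclear and the cytoplasmic/ER library from their group means correlated at 0.23 to 0.47 within the 6 cultures. Between the shRNAs, libraries of equal replicate number correlated at 0.26 to 0.46. These correlations thus cannot separate a shared culture from a shared replicate number.

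Each library was scaled by its median-of-ratios factor (0.982 to 1.02) and values were taken as log2 with 0.1 added, so folds of low genes are understated. Mitochondrial genes (13) were left out of the tests. Limma 3.58.1 (R 4.3.3, lmFit and eBayes with trend) was fitted to the 12 libraries with the culture as a block, with Benjamini-Hochberg adjustment over 14472 genes and a threshold of 0.05. Standard errors measure the spread between cultures only. On simulated data for this comparison (14472 genes), limma recovered 90 of 100 genes with an added log2 change of 1 and 97 of 100 with 2, with 12 false calls among 14272. Only 200 genes were changed, and normal noise was drawn independently for each library from the fitted variances. The simulation thus does not cover N/C values shared between cultures, or the larger share of genes called in the real data. Depth was estimated from steps of 1 read in low values (84.4% to 86.5% lay within 0.1 of a whole read), and covers counting error only.

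IDs were matched to GENCODE release 44 on GRCh37 (32776 matched, 1688 not). Features are medians over a gene's transcripts, and motifs were searched in 1 transcript per gene. The members and lists were chosen with earlier results of these data known. Genes named are the highest and lowest of each list above 10 FPKM, the 12 highest and lowest mRNAs and 8 lncRNAs above 5 FPKM called with 1 sign in all 6 cultures, the 5 lowest p of the 2 other comparisons, and genes the study names. The 12 highest and lowest mRNAs and the 8 lncRNAs were picked by N/C, so separation of their fractions was favoured by the choice. Further list members were named after their values were seen. Python 3.11.15, pandas 2.3.3 and scipy 1.17.1 were used, and matplotlib 3.10.9 for figures. The alternatives were other pseudocounts and filters, unscaled values, mitochondrial genes kept, other blocks, no trend, 1 shRNA only and each culture left out.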

Additional observations from a re-analysis of the deposited data

Results flagged for a closer look

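For groups of 6, a value was singled out when its gap to the nearest other value exceeded, as a share of the whole range, Dixon's 95% critical value for 6, which chance gives in about 1 of 20 groups. Of 96 sets of 6 culture values tested, 7 were singled out, where chance would give about 4.8. The median N/C of replication-dependent histones was 1.44 in TPR D replicate 1 and 0.07 to 0.31 in the other 5 cultures. That of solute carriers was -0.18 in TPR D replicate 2 and 0.06 to 0.17 in the others. The remaining 5 were single genes. ENSG00000267952 had an N/C of -7.99 in TPR D replicate 1, where it was listed at 0 in the nuclear library, and -2.81 to -2.03 elsewhere. LINC02041 had -5.77 in the same culture for the same reason and -1.85 to -0.40 elsewhere, and DNAJC25-GNG10 had -6.98 in TPR D replicate 3, also with a nuclear value of 0, against -2.29 to -0.92. ENSG00000256185 had 1.47 in TPR A replicate 3, the 1 culture whose cytoplasmic/ER library was not listed at 0, and 5.70 to 7.99 elsewhere. LINC02242 had -2.27 in TPR D replicate 3 and -1.72 to -1.40 in the other cultures.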

How the results depend on the processing

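Under 18 of 20 alternatives the count of genes higher in the nuclear fraction stayed within 1.5 times of 4538, and likewise for the 4625 genes higher in the cytoplasmic/ER fraction. The exceptions were the TPR A cultures alone (3012 and 2878 genes), with fewer samples, and a minimum of 1 on the log2 scale (1559 and 1156), which keeps part of the calls by construction. Leaving out 1 culture at a time gave 4032 to 4585 and 4115 to 4706 genes. Without the culture block 3667 and 3667 genes were called, and with the replicate number as the block 4527 and 4583. The latter block adjusts the level and not N/C, so it does not cover N/C values shared by cultures of equal number. The comparison of TPR A with TPR D and that of depleted with control cells had no call under the 14 and 4 alternatives run, which include the replicate number as a further block (added after the data were seen). Libraries of equal number deviated together between the shRNAs in level (nuclear against cytoplasmic/ER, correlations of 0.26 to 0.46). Their deviations of N/C from the shRNA means correlated at -0.07, 0.22 and 0.11 for replicates 1, 2 and 3. For unequal numbers the correlations were -0.28 to 0.21. The 3 deviations of each shRNA sum to 0, so the values for equal and unequal numbers are not independent. Cultures of replicate 1 carry differently written labels from the rest, and whether they are a batch was not tested. Used alone (added after the data were seen), the 2 cultures of replicate 1 gave 3352 and 3368 calls and the other 4 gave 3766 and 3853.

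Medians of gene lists moved by more than 1 SD of the cultures in 23 cases and by less in 521. With replicate 1 alone they were -0.22 for microRNA hosts, 0.38 for SR proteins, 0.44 for hnRNP proteins, 0.021 for short-lived transcription factors, 0.27 for chromatin regulators, -0.13 for the respiratory chain, -0.51 for cytosolic and -0.12 for mitochondrial ribosomal proteins. With no minimum FPKM they were -0.20 for microRNA hosts, 1.23 for matrix and secreted proteins, 0.56 for integrins and surface proteins, -0.12 for TMEM, -0.058 for LINC and -0.093 for antisense genes, and -0.0055 for protein-coding genes. With a mean above 5 FPKM they were 0.23 for ZNF, -0.12 for TMEM, -0.58 for LINC and -0.44 for lncRNA genes, 0.25 for intronless mRNAs and -0.16 for intronless lncRNAs. With a pseudocount of 1 they were -0.24 for lncRNA genes and 0.26 for intronless mRNAs. The cause was not tested.

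For the transcript features, rho with the number of exons was 0.18 with no minimum, 0.28 for the longest transcript and -0.066 with CDS length held constant. With CDS length, rho was 0.35 for replicate 1 alone and 0.47 for the longest transcript, and with mRNA length 0.24 for replicate 1 alone and -0.017 with CDS length held constant. Held constant in the same way, it was 0.037 for pre-mRNA length and -0.055 for 3′UTR length. Of 202 genes followed in this way, 51 changed their call at least once. ENSG00000271973, which was not called with all cultures, reached -0.81 with the opposite sign in TPR A alone. FPKM without counts and 6 cultures limit the precision.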
